A study of Mus musculus with 21 samples.

Results

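The Hox genes were 39 of the 24028 genes in a count table of 21 mouse mammary tumours, taken as every row whose symbol is Hox followed by a cluster letter from a to d and a number. All tumours were of the genotype WAP-Cre/PIK3CA-H1047R. In this model Cre recombinase, made under the promoter of a milk protein gene that is active in mammary epithelium, turns on the H1047R mutant of the catalytic subunit of PI3K-alpha. By their labels, 7 tumours were relapse tumours under BYL719 (alpelisib, an inhibitor of PI3K-alpha), 7 were stable tumours under BYL719 and 7 came from animals given the vehicle DMSO. The series text calls one BYL719 class responding, and the groups are named here by the labels of the samples. The sources used here give no age, dose or time on treatment. Nothing in the labels says that the tumours of a group came from separate animals, so p-values measure the spread between these tumours. The titles carry 12 codes, some shared by 2 or more tumours, and what a code stands for is not stated. The 7 relapse tumours carry 7 codes, the 7 stable tumours 4 and the 7 vehicle tumours 3.

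Each title also ends with a digit and the letter L or R. The labels do not say what the digit means, and it was read as the number of the mammary gland, which in mice is counted by convention from the neck towards the groin. Tumours of digit 4 or 5 are called rear (relapse 2, 4 and 6, stable 2 and 3, and vehicle 2, 3, 5, 6 and 7), and those of digit 1 or 3 are called front (relapse 1, 3, 5 and 7, stable 1, 4, 5, 6 and 7, and vehicle 1 and 4). Rear tumours thus made up 3 of 7 relapse tumours, 2 of 7 stable tumours and 5 of 7 vehicle tumours, so position and group are partly confounded. Both were therefore compared, and each was also examined with the other held fixed.

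Hox genes encode homeodomain transcription factors that give cells their place along the head to tail axis. They lie in 4 clusters, and within a cluster the genes of low number are active towards the head and those of high number (the Abd-B type, named after the Drosophila gene) towards the tail. Adult cells, fibroblasts above all, keep much of this code. In the mouse mammary gland Hoxc8 takes part in placing the embryonic gland, and Hoxa9, Hoxb9 and Hoxd9 act together in the growth of the gland in pregnancy.

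The table held 11 genes of cluster A (chromosome 6), 10 of cluster B (chromosome 11:96194316-96368254), 9 of cluster C (chromosome 15:102921131-103036856) and 9 of cluster D (chromosome 2:74668225-74765142), with RefSeq positions on GRCm38.p6. Total counts per tumour ranged from 13337848 to 24873844, and all Hox genes together gave 15.5 (vehicle 1) to 126 (stable 5) CPM of these unscaled totals. After the filter on low counts 25 members were tested, and 14 were not. The 14 untested members held 718 of the 21386 Hox counts. They included most genes at the ends of the clusters (Hoxa2, Hoxb1 and Hoxd1 at one end, Hoxa11, Hoxa13, Hoxb13, Hoxc11, Hoxc12, Hoxd11, Hoxd12 and Hoxd13 at the other), together with Hoxa6 and Hoxb8. Levels below are CPM, counts scaled to the same library total in each tumour, with TMM factors that correct for differences in library makeup. For a scale between genes, the mean level per kilobase of the table's gene width was 2.85 CPM for Hoxd8, 2.38 CPM for Hoxc8 and 2.35 CPM for Hoxc6, the highest 3 of the 39. In bulk tumours, fewer cells that make a transcript and less of it per cell cannot be told apart.

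Between positions a single gene was called. Hoxc10, whose homeodomain protein is known for its part in the lumbar spine and the hindlimb, was read in all 10 rear tumours. In the front it was read in 6 of 11 tumours, at 1 or 2 counts each. It had 5.75, 3.64 and 2.65 CPM in relapse 2, 4 and 6, then 0.484 and 1.37 CPM in stable 2 and 3, and 0.732, 2.03, 1.19, 0.327 and 0.799 CPM in vehicle 2, 3, 5, 6 and 7. In the 11 front tumours its level ran from 0 CPM through a median of 0.0457 to a highest of 0.0869 CPM, the last in stable 1. The groups did not overlap, the lowest rear tumour (vehicle 6) having 7 counts and the highest front tumour having 2. Summed, there were 388 counts in rear tumours against 7 in front tumours, a ratio of 62.8 on scaled totals with a 95% counting interval of 30.2 to 157, which covers counting error only. With group as a term, Hoxc10 was higher in rear than in front tumours by 5.65 ± 0.54 on the log2 scale (SE; adjusted p = 3.22e-05 by edgeR's quasi-likelihood test). It was the 1 gene called of 15792 tested, 0.00633% of them, and so the 1 called of the 25 tested Hox genes.

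**Figure D1:**
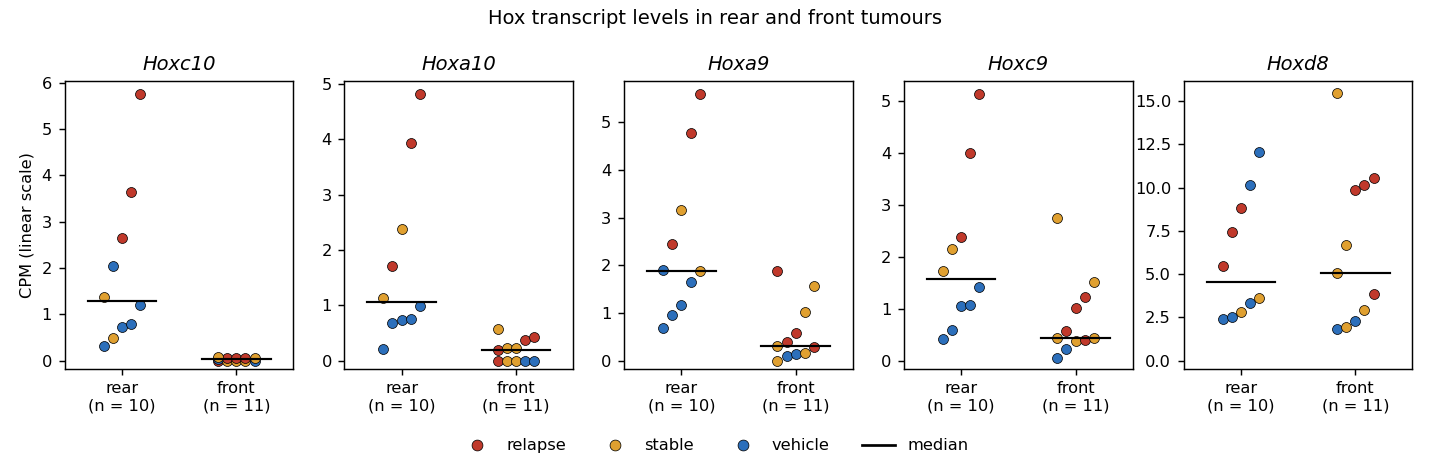
CPM on a linear axis of 5 Hox genes in each tumour, with the 10 rear tumours left of the 11 front tumours, coloured by group, and the median as a bar. Every rear tumour lies above every front tumour for Hoxc10. Hoxa10, Hoxa9 and Hoxc9 have higher rear medians with overlap, and the positions overlap throughout for Hoxd8.

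Hoxc10 has close relatives, so the sequences bear on whether a short read could be placed. The 60 codons of the homeobox, the stretch in which Hox genes resemble each other most, are given for the paralogue group 10 because their values are compared here. They are from GENCODE transcripts on GRCm38 (chromosome 15 for Hoxc10, 6 for Hoxa10 and 2 for Hoxd10), and capitals mark the bases that differ from Hoxc10.
Hoxc10: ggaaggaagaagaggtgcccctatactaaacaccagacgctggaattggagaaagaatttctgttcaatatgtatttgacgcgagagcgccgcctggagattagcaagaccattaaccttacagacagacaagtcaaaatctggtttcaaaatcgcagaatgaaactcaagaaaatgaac
Hoxa10: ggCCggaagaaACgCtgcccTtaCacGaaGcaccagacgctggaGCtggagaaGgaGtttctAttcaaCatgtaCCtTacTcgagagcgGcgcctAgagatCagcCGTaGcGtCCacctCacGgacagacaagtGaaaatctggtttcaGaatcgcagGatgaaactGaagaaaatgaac
Hoxd10: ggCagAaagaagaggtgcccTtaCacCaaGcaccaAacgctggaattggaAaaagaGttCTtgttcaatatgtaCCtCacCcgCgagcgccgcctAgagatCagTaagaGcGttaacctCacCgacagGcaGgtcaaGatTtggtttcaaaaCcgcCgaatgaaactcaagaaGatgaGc
Hoxa10 shared 145 of the 180 bases and 56 of the 60 codon products with Hoxc10, and Hoxd10 shared 149 bases and 57 products. No run of 50 bases, the read length, was common to the transcripts of these 3 genes. Of all 741 pairs of members 4 had such a run. One was Hoxc5 with Hoxc10, which share 168 bases, and 6.40% of the 50-base windows of the Hoxc10 transcript lie in that stretch. Hoxc5 itself did not follow Hoxc10: its summed counts were 448 in rear tumours against 345 in front tumours, a log2 difference of 0.72 ± 0.48 (SE) with an adjusted p of 0.683. No gene span of RefSeq overlaps that of Hoxc10 (chromosome 15:102966796-102971898).

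Hoxa10 ranked second of all 15792 genes by p. It had 4.81, 3.94 and 1.71 CPM in the rear tumours relapse 2, 4 and 6, with 1.13 and 2.37 CPM in stable 2 and 3 and 0.213 to 0.980 CPM in the 5 rear vehicle tumours. Front tumours ran from 0 CPM through a median of 0.193 to 0.565 CPM, and 5 of the 11 had no count. All rear tumours but vehicle 7 lay above the highest front tumour. The log2 difference was 3.73 ± 0.62 (SE) and missed the threshold with an adjusted p of 0.0656. The call depended on the tumours and tool: without stable 1 the adjusted p was 0.0136, and the DESeq2 Wald test gave 2.36e-06. Hoxa10, like Hoxc10 of the Abd-B type, shapes the lumbosacral spine and the uterus.

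Hoxa9, the neighbour of Hoxa10, had the next largest difference. Rear tumours ran from 0.692 CPM in vehicle 7 through a median of 1.89 to 5.59 CPM in relapse 4. Front tumours ran from 0 CPM in stable 6 through a median of 0.304 to 1.88 CPM in relapse 1. Every rear tumour exceeded the front median, and 6 of 10 exceeded the highest front tumour. The log2 difference was 2.53 ± 0.54 (SE) with an adjusted p of 0.312, rank 8 of all genes.

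Hoxc9, Hoxc13 and Hoxb9 were picked out after their values were seen. Hoxc9, between Hoxc10 and Hoxc8 on the chromosome, had 0.420 CPM (vehicle 6) to 5.13 CPM (relapse 2) in rear tumours, median 1.57, against 0.0457 to 2.74 CPM in front tumours, median 0.440. Its log2 difference was 1.92 ± 0.46 (SE; adjusted p = 0.487). Hoxc13, which is known for its part in hair and nails, had a log2 difference of 1.71 ± 0.51 (adjusted p = 0.556), and Hoxb9 one of 1.22 ± 0.52 (adjusted p = 0.571). Neither these nor Hoxa9 passed the test.

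By number, the members fell as follows, given as a description with no test. The 8 tested members numbered 9 to 13 had a median log2 difference of 1.82, all 8 positive, from 0.08 for Hoxd9 to 5.65 for Hoxc10. The 17 numbered 2 to 8 had a median of 0.27, with 14 positive, from -0.23 for Hoxd3 to 0.77 for Hoxa7. Over all 25 the median was 0.41 and 22 were positive, beside a median of -0.01 and 48.0% positive over all 15792 genes. Hoxc10, with at most 2 counts in any front tumour, passed the filter on low counts through its rear tumours. Hoxa10, with a front median of 4 counts, did so mostly through them. Their positive sign among tested members was thus partly fixed by the filter, and these medians and sign counts add no separate evidence. Of the 25, 6 had an unadjusted p under 0.05 (Hoxa9, Hoxa10, Hoxb9, Hoxc9, Hoxc10 and Hoxc13), as did 1315 of all genes.

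**Figure D2:**
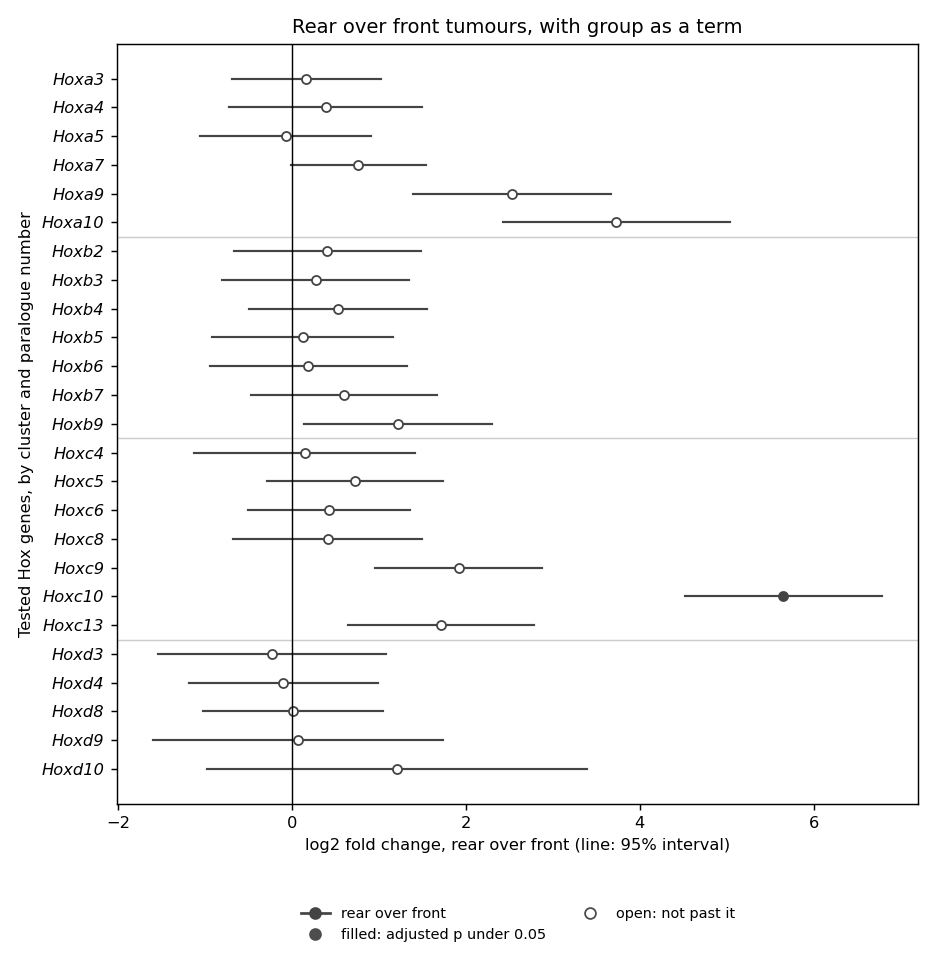
Log2 fold change, rear over front, of the 25 tested Hox genes with its 95% interval, by cluster and then by number from low to high; a filled point passed an adjusted p of 0.05. Hoxc10 at 5.65 is the filled point, followed by Hoxa10 at 3.73, Hoxa9 at 2.53, Hoxc9 at 1.92 and Hoxc13 at 1.71.

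By cluster and in order of number, the difference in cluster A was 0.17 for Hoxa3, 0.39 for Hoxa4, -0.07 for Hoxa5, 0.77 for Hoxa7, 2.53 for Hoxa9 and 3.73 for Hoxa10. In cluster C it was 0.15 for Hoxc4, 0.72 for Hoxc5, 0.42 for Hoxc6, 0.41 for Hoxc8, 1.92 for Hoxc9, 5.65 for Hoxc10 and 1.71 for Hoxc13. The cluster C values thus peaked at Hoxc10 and were lower again at Hoxc13. In cluster B it was 0.13 to 1.22 in all 7 tested members. Cluster D held 5 tested members, and Hoxd10, the last gene of its paralogue group, had 1.21 ± 1.05 (SE; adjusted p = 0.753). That value came mostly from a pair of vehicle tumours, with 6.16 CPM in vehicle 6 and 4.67 CPM in vehicle 2, while the other 8 rear tumours lay at 0 to 1.22 CPM and the 11 front tumours at 0 to 0.561 CPM.

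The balance within a cluster, which does not depend on the scaling between tumours, was also taken. Hoxc10 made up 2.65% to 17.8% of the counts of cluster C in rear tumours, median 8.64%, against 0% to 2.38% in front tumours, median 0.128%. Hoxa9, Hoxa10, Hoxa11 and Hoxa13 together made up 25.4% to 65.7% of cluster A in rear tumours, median 50.9%, against 0% to 31.4% in front tumours, median 9.76%. The first shares did not overlap between positions and the second did. Both mostly restate the counts of Hoxc10, Hoxa9 and Hoxa10 given above, and add no separate evidence. The summed level of all 39 genes was 33.2 to 98.1 CPM in rear tumours, median 48.8, and 15.7 to 119 CPM in front tumours, median 36.9, which overlapped throughout.

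Within each group Hoxc10 kept its side. No front tumour reached a rear tumour, so this direction was already fixed for every group and code. The contrasts below add the sizes and no separate evidence. In relapse tumours Hoxc10 was higher in the 3 rear than in the 4 front tumours by 6.55 ± 0.85 on the log2 scale (SE; adjusted p = 0.00687), again the 1 gene called of 15792 (0.00633%). In the 2 rear against the 5 front stable tumours the difference was 4.69 ± 0.86 (adjusted p = 0.559), the lowest p of all genes in a contrast in which edgeR called 0 genes and 223 had an unadjusted p under 0.05. In the 5 rear against the 2 front vehicle tumours the difference of Hoxc10 was 5.16 ± 1.14 (adjusted p = 0.0649 by edgeR). There 24 genes were called (0.152%, with 0.0317% higher and 0.12% lower), none of them a Hox gene. An unadjusted p under 0.05 was found for 11 of the 25 tested Hox genes and for 3603 of all 15792 genes. Among tumours of 1 code the same held: in the 4 codes with tumours of both positions Hoxc10 was higher in the rear each time, for example 2.03 CPM in vehicle 3 against 0 CPM in vehicle 4. A higher rear mean in all 4 codes was found for 7 of the 25 tested members (Hoxa4, Hoxa7, Hoxa9, Hoxa10, Hoxb9, Hoxc9 and Hoxc10). The share over all genes was not taken, so the 7 have no baseline. In 1 of the 4 codes the rear tumour was relapse 6 and the front tumour stable 7, so group differed there too. With the code as a fixed block, which leaves these 4 codes to inform the difference, the log2 difference of Hoxc10 was 6.37 and its adjusted p 0.560, with 0 genes called.

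The lower numbered members did not keep a side. In stable tumours all 17 tested members numbered 2 to 8 had negative differences, rear against front, with a median of -0.99. In vehicle tumours all 17 had positive ones, with a median of 1.40, and in relapse tumours 12 of 17 were positive, with a median of 0.35. An interaction of position and group was tested for each gene. It passed in 0 of 15792 genes (edgeR; 1699 at an unadjusted p under 0.05), of which 2 were Hox genes, Hoxd9 (adjusted p = 0.434) and Hoxb7 (adjusted p = 0.440).

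**Figure D3:**
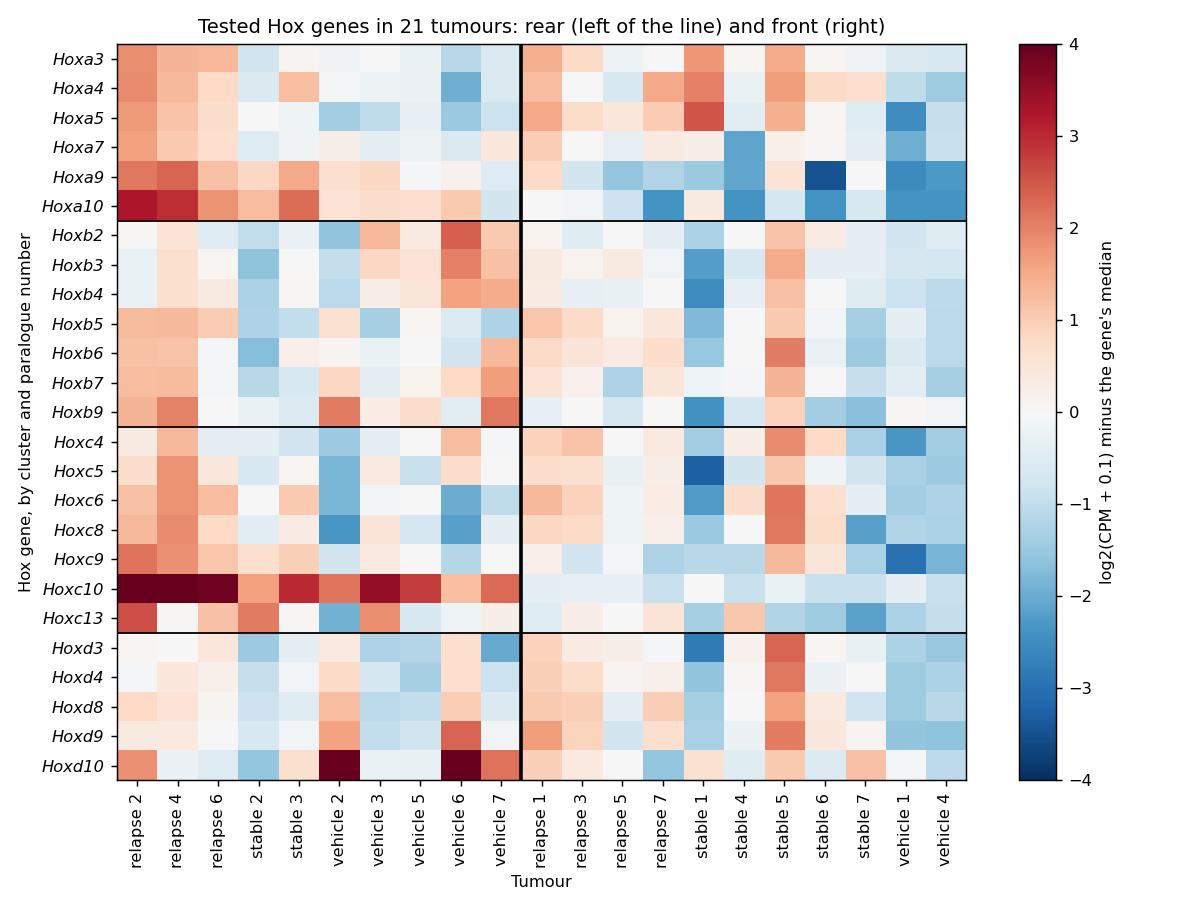
Log2(CPM + 0.1) of the 25 tested Hox genes (rows, by cluster and number) in the 21 tumours (columns), less each gene's median, with 10 rear tumours left of the line and 11 front tumours right of it; the colours end at 4 either way. The rows of Hoxc10 and Hoxa10 change at the line, while stable 5 is high for most members, stable 1 is low over most of clusters B, C and D, and vehicle 2 and vehicle 6 stand out for Hoxd10.

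Single tumours held many of the highest and lowest values. Stable 5 had the highest level of 7 of the 25 members, among them Hoxc8 with 19.2 CPM against a median of 4.34 and Hoxd8 with 15.5 CPM against a median of 5.06. Relapse 2 was highest for 6, vehicle 6 for 5 and relapse 4 for 3. Stable 1 was highest for Hoxa4 and Hoxa5 and lowest for 8 members of clusters B, C and D.

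Markers of cell types were set beside the position difference, since tumours differ in makeup. The 11 basal and myoepithelial markers summed to 999 to 24323 CPM in rear tumours, median 2441, against 259 to 1671 CPM in front tumours, median 1244. The 12 skeletal muscle markers summed to 197 to 5019 CPM in rear tumours, median 281, against 289 to 7526 CPM in front tumours, median 944. The 15 fibroblast markers summed to 2709 to 12129 CPM in rear tumours, median 5576, against 2241 to 11070 CPM in front tumours, median 2863. All these ranges overlapped, and every basal, fibroblast and luminal marker was read in all 21 tumours; of the muscle markers Ckm and Myh7 were at 0 in 1 tumour each. These sums take no account of group, and 5 of 7 vehicle tumours were rear. By group, the medians of the basal markers were 5767 CPM in vehicle, 1300 CPM in relapse and 1193 CPM in stable tumours. Those of the muscle markers were 288, 2719 and 634 CPM in the same order. Group and position are therefore not separated in these sums. The part of cell makeup in the Hox differences between positions was not tested.

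Genes that work with or set the Hox code were not called between positions. They were 88 of the 171 tested genes of all lists, the rest being cell type markers. By edgeR, DESeq2 or limma voom 0 of the 171 passed, and so 0 of the 88. Over all 171, markers included, 18 had an unadjusted p under 0.05 by edgeR, 26 by DESeq2 and 30 by limma voom. Meis1, a partner that binds DNA with Hox proteins, had a log2 difference of 0.61 ± 0.45 (SE; adjusted p = 0.704). Ezh2, the methyltransferase of the Polycomb complex that keeps Hox genes silent, had -0.11 ± 0.15 (adjusted p = 0.830), and Kmt2a, the Trithorax type methyltransferase that keeps them active, 0.005 ± 0.11 (adjusted p = 0.994). Tbx5, a marker of the forelimb level, had 0.77 ± 0.57 (adjusted p = 0.707). Tbx4 and Pitx1, which mark the hindlimb level, were too low to be tested, with 27 and 75 summed counts in rear tumours against 20 and 31 in front tumours. The lists' median log2 differences were -0.06 over 23 Polycomb genes, -0.07 over 16 Trithorax genes, 0.09 over 14 retinoic acid genes, -0.15 over 11 genes that flank the clusters and 0.41 over 15 factors of limb and body position.

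Relapse tumours were then compared with vehicle tumours. Hoxa5, Hoxc6, Hoxa3 and Hoxa4, all of low or middle number, rose in relapse tumours. They were 4 of the 25 tested Hox genes (16%), all higher, beside 5.42% of all genes called higher and 5.8% called lower, 11.2% in all. The median over the 25 was 0.91 with 19 positive, beside -0.02 and 47.8% positive over all genes. This fit had no position term. With position as a covariate Hoxa7, Hoxa10 and Hoxc9 were called as well, so the limit to low and middle numbers did not hold there.

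Hoxa5, which patterns the neck and chest and acts in the lung and mammary gland, had the lowest p of the 4. Relapse tumours had 1.74 CPM (relapse 5) to 4.23 CPM (relapse 2), median 2.59, against 0.137 CPM (vehicle 1) to 0.962 CPM (vehicle 5), median 0.57, in vehicle tumours. These groups did not overlap, but the share of all genes without overlap was not taken. The log2 difference was 2.37 ± 0.50 (SE; adjusted p = 0.00677). Hoxc6 had 2.37 to 9.53 CPM in relapse tumours, median 6.15, against 0.607 to 2.66 CPM in vehicle tumours, median 1.09, a difference of 2.03 ± 0.51 (adjusted p = 0.0158). Relapse 5 and relapse 7 were the lowest relapse tumours, and relapse 5 lay below vehicle 5 and vehicle 3.

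Hoxa3 and Hoxa4, which pattern the head to neck levels, had fewer counts. Hoxa3 had 0.435 to 2.14 CPM in relapse tumours, median 1.45, against 0.187 to 0.520 CPM in vehicle tumours, median 0.320, with a log2 difference of 1.74 ± 0.44 (SE; adjusted p = 0.0159). Hoxa4 had 0.145 to 1.34 CPM in relapse tumours, median 0.799, against 0 to 0.274 CPM in vehicle tumours, median 0.160, with 102 against 22 summed counts and a difference of 2.23 ± 0.60 (adjusted p = 0.0213). Both overlapped by the low values of relapse 5, joined for Hoxa3 by relapse 7. The RefSeq span of Hoxa3 (chromosome 6:52169059-52213067) covers those of Hoxa4 and Hoxa5, and the sources used here do not say how reads in shared stretches were counted, so these 3 values are uncertain as separate measurements. The antisense gene Hoxaas3, which overlaps Hoxa5, had 4 counts in all 21 tumours.

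**Figure D4:**
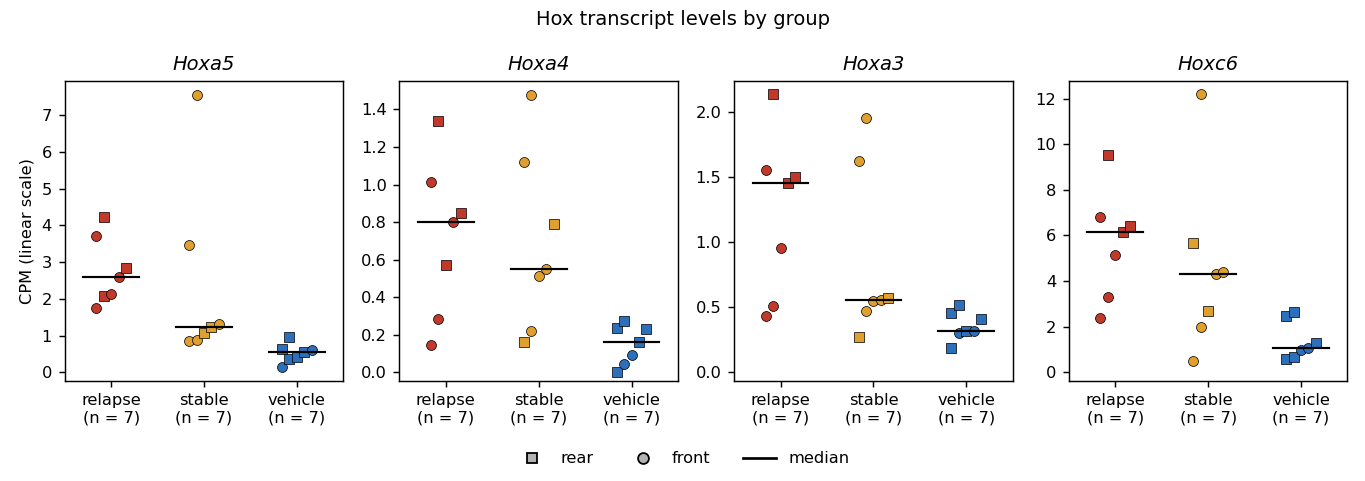
CPM on a linear axis of Hoxa5, Hoxa4, Hoxa3 and Hoxc6 in each tumour by group, 7 tumours each, with the median as a bar; squares are rear and circles front tumours. For Hoxa5 every relapse tumour (1.74 CPM or more) lies above every vehicle tumour (0.962 CPM or less), while stable tumours spread from 0.842 to 7.56 CPM.

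By cluster, all 6 tested members of cluster A and all 7 of cluster C had positive differences, with medians of 1.75 and 1.25. In cluster B 4 of 7 were negative, with a median of -0.38, and in cluster D 2 of 5. Hoxc8 (1.76 ± 0.57, SE; adjusted p = 0.0507) and Hoxb5 (1.57 ± 0.52; adjusted p = 0.0555) lay just outside the threshold. Hoxd10 had the most negative value, -2.51 ± 0.96 (adjusted p = 0.0968), with 0 to 0.936 CPM in relapse tumours against 0.0435 to 6.16 CPM in vehicle tumours, where vehicle 2 held 102 and vehicle 6 held 132 of its 268 counts.

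Stable against vehicle tumours gave 3 of those 4 genes. Hoxa5 rose by 2.14 ± 0.50 on the log2 scale (SE; adjusted p = 0.00908), with 0.842 to 7.56 CPM in stable tumours, median 1.24, against the vehicle range above. Hoxa4 rose by 2.19 ± 0.60 (adjusted p = 0.0212), with 0.161 to 1.48 CPM in stable tumours, median 0.553. Hoxc6 rose by 1.70 ± 0.51 (adjusted p = 0.0307), with 0.478 to 12.2 CPM in stable tumours, median 4.32. The stable tumours overlapped the vehicle tumours for all 3, and 1 tumour set each top value, stable 1 for Hoxa5 and Hoxa4 and stable 5 for Hoxc6. Without stable 1 the difference of Hoxa5 was 1.46 (adjusted p = 0.0149). Hoxa3 had 1.24 ± 0.44 (adjusted p = 0.0616). The call of Hoxc6 was lost on leaving out any 1 of stable 3, stable 5, vehicle 2, vehicle 6 and vehicle 7, with a value of 1.22 and the highest adjusted p of 0.0787 without stable 5. The 3 called genes were 12% of the 25, all higher, beside 6.9% of all genes higher and 8.16% lower, 15.1% in all. The median over the 25 was 0.20, with 17 positive, beside -0.005 and 49.5% positive over all genes. Both contrasts use the same 7 vehicle tumours.

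**Figure D5:**
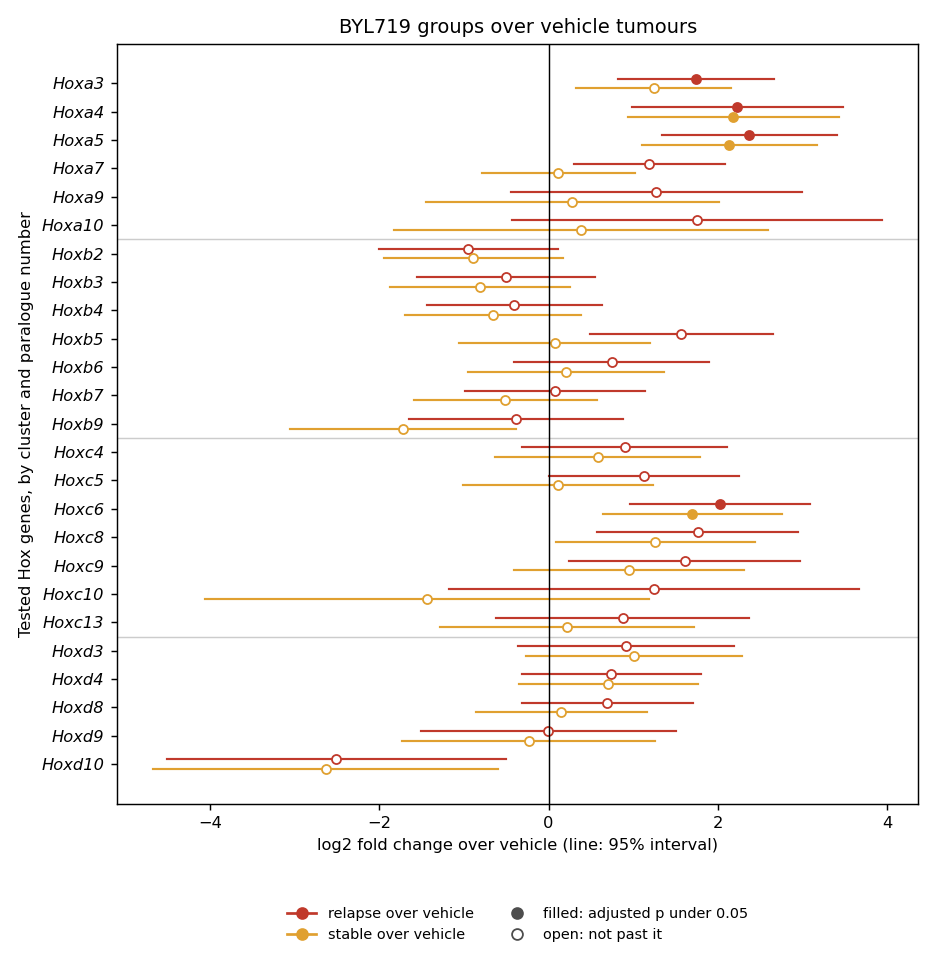
Log2 fold change over vehicle of the 25 tested Hox genes with its 95% interval, for relapse (upper point of each pair) and stable (lower point) tumours; filled points passed an adjusted p of 0.05. Filled points are Hoxa3, Hoxa4, Hoxa5 and Hoxc6 for relapse and Hoxa4, Hoxa5 and Hoxc6 for stable, most of cluster B lies at or left of 0, and Hoxd10 lies at -2.51 and -2.64.

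Some or all of these calls were lost when tumours of 1 code were added together and when 3 vehicle tumours were left out. Both fits hold fewer samples, and the cause of the losses was not tested. When tumours of 1 code and group were added together, Hoxa5 stayed called in relapse tumours (2.43; adjusted p = 0.0241) and in stable tumours (2.28; adjusted p = 0.0491). Hoxa3, Hoxa4 and Hoxc6 were then not called in relapse tumours (adjusted p from 0.0508 to 0.0819), nor Hoxa4 and Hoxc6 in stable tumours (the lower adjusted p being 0.0679). Vehicle 2, 6 and 7 stood apart by their basal and myoepithelial markers, which summed to 18372, 24323 and 11069 CPM, against 259 to 5767 CPM in the other 18 tumours. Without these 3 tumours the log2 differences of the called genes ran from 1.64 to 2.27 in relapse tumours and 1.35 to 2.19 in stable tumours, but none passed, with adjusted p from 0.0612 to 0.126 and from 0.0721 to 0.194. Hoxd8 was then called in relapse tumours (1.83; adjusted p = 0.0473), and 0 Hox genes in stable tumours. In front tumours alone (4 relapse and 5 stable against 2 vehicle) relapse tumours had differences of 1.45 to 2.94 and stable tumours of 2.17 to 3.42, and in rear tumours alone (3 relapse and 2 stable against 5 vehicle) they were 2.14 to 2.35 and 0.97 to 1.45. No Hox gene passed in either, and the lowest adjusted p of these genes was 0.0584. With position as a covariate 7 Hox genes were called in relapse tumours, all higher, the same 4 with Hoxa7, Hoxa10 and Hoxc9, and 3 in stable tumours, Hoxa4, Hoxa5 and Hoxc9. The count over all genes in that relapse fit is not given here, so the 7 cannot be set against it.

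Other cell type markers also moved with the groups. Of the 12 skeletal muscle markers 11 rose in relapse and 7 in stable tumours, and relapse tumours had summed levels of 197 to 7526 CPM, stable tumours 224 to 4260 CPM and vehicle tumours 222 to 554 CPM. Of the 11 basal markers 7 fell in both comparisons by edgeR, and limma voom called none of them. For the muscle markers limma voom called 8 in relapse tumours and 0 in stable tumours. Of the 15 fibroblast markers 4 rose in relapse tumours (Mfap5, Fbln1, Thy1 and Pi16), while 3 rose and 1 (Dcn) fell in stable tumours. Of the 11 adipocyte markers 3 rose in relapse tumours and 1 in stable tumours, and of the 13 luminal markers 3 fell in relapse tumours (Foxa1, Prlr and Pgr), while Kit rose and Foxa1 fell in stable tumours. Over all 171 tested genes of the lists edgeR called 25 higher and 14 lower in relapse tumours, where limma voom called 19 and 1, and 20 higher and 14 lower in stable tumours, where limma voom called 13 and 1. No endothelial, leukocyte or nerve marker was called by edgeR in these comparisons. Their part in the Hox differences was not tested.

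Of 88 tested genes around the Hox code (partners, Polycomb, Trithorax, retinoic acid, flanking genes and factors of position), edgeR called 11 in relapse tumours (12.5%, beside 11.2% of all genes) and 13 in stable tumours (14.8%, beside 15.1%). These shares are near those of all genes. Meis2, a partner of Hox proteins, rose by 1.82 ± 0.46 in relapse tumours and 2.24 ± 0.46 in stable tumours on the log2 scale (SE; adjusted p = 0.0156 in relapse and 0.00457 in stable tumours), as 1 of 9 tested partners. In the Polycomb list of 23, Cbx2 rose by 1.33 ± 0.36 in relapse tumours (adjusted p = 0.0210), Cbx6 fell by 1.51 in relapse tumours and 1.83 in stable tumours (adjusted p = 0.0382 and 0.0142), and Ezh1 rose by 0.59 in stable tumours (adjusted p = 0.0222). Mllt3, which works with the Kmt2a machinery, rose in both, by 0.54 in relapse tumours and 0.48 in stable ones, and the H3K27 demethylase Kdm6a rose by 0.40 in stable tumours. In the retinoic acid list of 14, Aldh1a2, which makes retinoic acid, rose by 1.77 ± 0.57 in relapse tumours (adjusted p = 0.0492) and Rxrb by 0.34, while the binding protein Crabp2 fell by 1.29 in relapse tumours and 1.19 in stable tumours, and the receptor Rxra fell by 0.48 in stable tumours. By limma voom Cbx6, Crabp2 and Aldh1a2 were not called in either comparison.

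Of 15 tested factors of limb and body position Alx4 fell by 3.01 in relapse tumours and 3.43 in stable tumours (adjusted p = 0.0157 and 0.00785), and Shox2 rose by 1.52 and 1.28 and Tbx18 by 1.51 and 1.35. Among 11 tested neighbours of the clusters Lnpk, next to cluster D, fell by 0.71 in relapse tumours and 0.59 in stable tumours, and Calcoco1 and Atf2 rose by 0.64 and 0.42 in stable tumours. limma voom did not call Alx4 in either comparison, nor Lnpk and Atf2 in stable tumours. The 16 noncoding RNAs, miRNAs and Evx genes of the clusters in the table were all too low to be tested, with at most 57 counts over 21 tumours (Halr1), and Hotair, which lies in cluster C, had 18.

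No Hox gene was called between relapse and stable tumours. edgeR called 0 of 15792 genes, with 751 at an unadjusted p under 0.05, of which 4 were Hox genes, and the DESeq2 Wald test called 6 genes, none a Hox gene. The lowest p values were those of Hoxb5, Hoxa7 and Hoxc10, all with an adjusted p of 0.990. Hoxb5 had 0.435 to 1.10 CPM in relapse tumours, median 0.882, against 0.0434 to 0.894 CPM in stable tumours, median 0.144, a difference of 1.49 ± 0.52 (SE). Hoxa7 had 0.629 to 2.76 CPM in relapse tumours, median 1.35, against 0.110 to 0.999 CPM in stable tumours, median 0.718, a difference of 1.07 ± 0.43. All 7 relapse tumours exceeded the stable median of Hoxb5 and 6 of 7 that of Hoxa7. Hoxc10 had a difference of 2.69 ± 1.27, with a 95% interval of 0.04 to 5.33, and its levels differed between positions in both groups: the 3 rear relapse tumours had 2.65 to 5.75 CPM and the 2 rear stable tumours 0.484 and 1.37 CPM, while the front tumours of both groups had at most 0.0869 CPM. Over the 25 genes the median was 0.50 and 23 were positive, beside -0.01 and 48.0% over all genes.

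The untested members are given by their counts. Hoxb8 had 147 counts in all, Hoxa6 132, Hoxa2 115 and Hoxd11 70, of which 33 lay in relapse 2. Relapse 2, a rear tumour, held 16 of the 25 counts of Hoxa11 and the highest count of 8 of the 14. Hoxa13, Hoxb1, Hoxb13, Hoxc11, Hoxc12, Hoxd1, Hoxd12 and Hoxd13 had 1 to 12 counts each. The 7 counts of Hoxc11 and the 5 of Hoxc12, which lie between Hoxc10 and Hoxc13, all came from rear tumours, and 0 in the front tumours allows up to 3 counts of their 223970316. Hoxc13 itself had 792 counts in rear tumours and 308 in front tumours, with counts in all 21.

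Hoxa5 and Hoxa9 lie on the same strand of cluster A, the first called higher in relapse tumours and the second given above for position, where it did not pass the test. Their promoters, from 250 bases before to 50 after the RefSeq start on GRCm38.p6 (minus strand, chr6:52204538-52204837 for Hoxa5 and chr6:52227321-52227620 for Hoxa9), are shown with CpG pairs in capitals.
Hoxa5: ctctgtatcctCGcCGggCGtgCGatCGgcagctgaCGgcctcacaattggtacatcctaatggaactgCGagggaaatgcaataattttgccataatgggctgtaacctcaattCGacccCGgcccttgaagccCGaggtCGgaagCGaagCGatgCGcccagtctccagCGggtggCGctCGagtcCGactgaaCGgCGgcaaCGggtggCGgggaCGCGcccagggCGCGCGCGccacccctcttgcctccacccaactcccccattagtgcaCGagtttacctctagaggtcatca
Hoxa9: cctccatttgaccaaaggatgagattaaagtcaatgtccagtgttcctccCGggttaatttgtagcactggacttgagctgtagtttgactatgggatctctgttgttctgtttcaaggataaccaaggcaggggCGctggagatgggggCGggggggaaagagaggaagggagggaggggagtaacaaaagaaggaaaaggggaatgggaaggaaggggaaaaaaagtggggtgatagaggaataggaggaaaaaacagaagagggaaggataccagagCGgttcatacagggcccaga
That of Hoxa5 holds 29 CpG pairs, more than 87.1% of 32851 mouse promoters of this length, and that of Hoxa9 holds 4, more than 31.4%. Promoters were at hand for 22 members, 24 in all, with a median of 14.5 CpG pairs against 7 over all promoters. The letters TTTATNG, which proteins of the Abd-B type can bind, stood on either strand in 2 of the 24 (8.33%) and in 10.9% of all promoters, and TGATTNAT, a site for Hox proteins with a partner, in 2 of the 24 (8.33%) and in 3.22% of all. Neither stood in the promoters printed here.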

How the data were processed

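Poly(A) RNA of 21 snap-frozen tumours was sequenced with a stranded kit as single reads of 50 bases, per the labels' protocols. The authors deposited raw counts per gene, with symbol, Entrez number and width. The submitters' processing notes name STAR 2.5.2a, SAMtools 1.3.1, Picard 2.9.2, edgeR and the build mm10; which annotation was used, whether strand was counted and how multiply placed reads were handled are not stated there. Of the 24028 rows, 10202 have an extra leading cell, so each was read from its last 25 cells. The Hox genes, the lists and the tests were chosen with earlier results of these data known.

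Genes were filtered by group with filterByExpr (15792 kept), scaled by TMM and tested with edgeR 4.0.16 (quasi-likelihood F test, R 4.3.3, Benjamini-Hochberg adjustment over all tested genes, called at an adjusted p under 0.05). The position fit had group as a term, and the group comparisons were fitted on all 21 tumours. SEs are the log2 change over the root of F. CPM uses TMM-scaled totals, on which 1 count is worth 0.0435 to 0.0718 CPM. Alternatives were the DESeq2 1.42.0 Wald test, limma 3.58.1 voom, and the other settings in the closing section. On simulated counts of 15792 genes the position fit recovered 58% of 100 genes changed 2-fold and 82% of 100 changed 4-fold, and the relapse and vehicle fit 49% and 80%. The changed genes were drawn at random from all tested genes, with no other difference between groups or positions simulated. These rates therefore do not hold for the Hox genes, which have few counts.

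Members called in a comparison, or else the lowest by p up to 3, are given in full, with Meis1, Ezh2, Kmt2a, Tbx5, Tbx4 and Pitx1 between positions and up to 4 called genes of a list. Other genes were singled out after their values were seen, and some items are not reported here. Sequences were read from GENCODE and RefSeq with Python 3.11.15.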

Additional observations from a re-analysis of the deposited data

Results flagged for a closer look

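Among stable tumours, 3 single values stood apart from the other 6 by Dixon's criterion at the 95% level. Hoxa5 reached 7.56 CPM in stable 1, where the next stable tumour had 3.47 CPM. Hoxb5 reached 0.894 CPM in stable 5, next to 0.385 CPM. Hoxc10 reached 1.37 CPM in stable 3, next to 0.484 CPM in stable 2, and these are the 2 rear stable tumours. In all, 36 pairs of a member and a group were examined over 9 members, and chance alone marks about 1 in 20.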

How the results depend on the processing

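Between positions 1 Hox gene was called. Alternatives gave 4 by the DESeq2 Wald test (Hoxa9, Hoxa10, Hoxc9 and Hoxc10), 2 each by limma voom (title code as random effect), with no group term and without digit 1 (Hoxa10 and Hoxc10), 0 with the title code as a fixed block, and 1 to 2 when each tumour was left out. Against vehicle, 4 Hox genes were called in relapse tumours and 3 in stable tumours. In relapse tumours there were 8 by the Wald test, 1 without vehicle 2, 6 and 7, 7 with position as a covariate, 0 in front and 0 in rear tumours alone, 2 with counts summed per title code (Hoxa5 and Hoxa6), and 4 to 6 when each tumour was left out. In stable tumours there were 6 by the Wald test, 0 without vehicle 2, 6 and 7, 0 in front and 0 in rear tumours alone, 1 with summed counts (Hoxa5), and 2 to 4 when each tumour was left out. Between relapse and stable tumours there were 0 under every alternative. Counts over all genes are not given here for every alternative, so these Hox counts alone do not show a changed share. The cause of these changes was not tested, but the fits on front or rear tumours alone and on summed counts hold fewer samples.

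Over all genes, 1 was called between positions, against 41 by the Wald test and 298 with no group term. In relapse tumours 1772 were called, against 527 without vehicle 2, 6 and 7 and 1156 without vehicle 6. In stable tumours 2378 were called, against 847 without vehicle 2, 6 and 7, 820 with position as a covariate and 1470 without vehicle 6. Same-numbered tumours did not deviate together (correlations from -0.258 to 0.358, 3 of 21 pairs over 0.1), so the numbers do not pair them. With the replicate block 3 Hox genes were called in relapse tumours and 0 in stable tumours, of 987 and 1251 genes. No called direction reversed. Members with few counts are limited by depth, and 14 of the 39 could not be tested.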
